A study of Mus musculus with 16 samples.

Results

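A set of 42 probes was lower from 12 h of E1A induction in mouse embryonic stem cells, stayed lower to 48 h and ended below a control harvested at 48 h. They were chosen from 13974 tested probes (0.301%) by a rule on group means of normalised log2 intensity. A member lay at least 0.6 below its 0 h mean at 12, 24 and 48 h, at least 0.4 below the 48 h control at 48 h, and its control mean lay less than 0.3 above 0 h. Of the 42 probes, 39 carried 1 gene symbol each and covered 34 genes, and 3 had no gene name in the annotation used. These values chose the probes, so changes from 0 h at 12, 24 and 48 h and the difference from the control are given as descriptions without a test.

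The series followed embryonic stem cells of a mixed C57BL/6, C3H and CD1 background on single-colour Illumina bead arrays, with 2 arrays in each of 8 groups. Arrays were labelled 0, 3, 6, 9, 12, 24 or 48 h of E1A induction, and the last group was a 48 h cherry control whose label gives the same treatment as the others. The labels do not say whether the control cells carried E1A, which promoter drove it, how it was induced, or whether the 0 h cells were also the start of the control. Nothing in them says that the replicates were separate cultures, so p-values measure the spread between these arrays, which may be technical. The series title names the question, steps towards pluripotency that do not need the transcription factor Sox2.

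E1A is an adenoviral early protein that binds the retinoblastoma proteins, which restrain E2F transcription factors, and the acetyltransferases p300 and CBP, which act at enhancers. Embryonic stem cells keep their state through a network around Pou5f1, Sox2 and Nanog, with Zfp42 (Rex1) as a much used marker of it. FGF4 made by these cells signals through ERK, and Etv4 and Etv5, ETS-family transcription factors, are known targets of that pathway.

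All 6 embryonic stem cell markers checked (Pou5f1, Sox2, Utf1, Nanog, Dppa5a and Zfp42) were detected on all 16 arrays. Of 7 feeder fibroblast markers only Thy1 was detected on all arrays, and Postn, Col1a2, Col3a1 and Lum were detected on none. The summed linear intensity of the stem cell markers was 35750 to 38473 at 0 h, 27100 to 27586 at 48 h and 34712 to 36491 in the control. A linear sum weights bright probes most, such as a Dppa5a probe at log2 14.43 and 14.29 at 0 h. The markers did not move together. At 48 h the log2 difference from 0 h was 0.41 for Nanog, -2.50 for Utf1 and -1.54 and -1.69 for 2 Pou5f1 probes. In the control these were 0.79, -1.93, -0.70 and -0.79. Zfp42 is itself a member. The sum of 6 trophectoderm markers, of which Krt8 and Krt18 were detected on all arrays and Elf5 and Hand1 on none, was 554 to 567 at 0 h, 1627 to 1665 at 48 h and 743 to 798 in the control. For 5 primitive endoderm markers (4 detected on all arrays) it was 1364 to 1487, 2354 to 2500 and 2394 to 2433, and for 4 neural markers (Map2 alone detected on all, Pax6 and Sox1 on none) 128 to 133, 169 to 177 and 149 to 152. The feeder marker sum was 212 to 215, 194 to 206 and 189 to 190. Not every trophectoderm marker shared the rise of its sum. Eomes and Cdx2 differed from 0 h by -0.54 and -0.27 at 48 h on the log2 scale. In the control they differed by -0.48 and -0.24, and their 48 h and control values lay under the lowest detected level. Cdx2 lay under it at 0 h as well, so the direction of its differences is uncertain. The part of these shifts in the member values was not tested, and in bulk RNA fewer cells of a type and less RNA per cell cannot be told apart. Each array detected 47.2% to 49.2% of its probes, and the correlation of the arrays within a group was 0.995 to 0.997 (r, across tested probes, which are not independent).

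The members were of several kinds, and this grouping by known role was made after their values were seen. Secreted signals and their regulators were Inhbb (the activin B subunit), Bmp4, Fgf17 and Notum, an enzyme that inactivates Wnt proteins. Transcription factors were Etv4, Etv5, Gbx2, Tcf15, Msc, Sox15, Zfp42, Zfp296, Mybl2 and the nuclear receptor Rarg. Both chromatin or co-repressor members were Aebp2 (a partner of Polycomb complex PRC2) and Cbfa2t2. The surface and cytoskeletal members were Jam2 (a junctional adhesion molecule), Mras (a Ras-family GTPase), Cobl (an actin nucleator), Myo1f, Rcsd1, Mapt (tau), Stmn2, Aplp1, Steap1 and Pitpnc1. The remainder were Enox1, Gabarapl2 (an autophagy protein), Mkrn1, Senp3 (a SUMO protease), Ubqln4, Shmt2 (a mitochondrial enzyme of 1-carbon metabolism), Cdc5l (a splicing factor) and Mageb4.

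Promoter sequence is shown for 3 transcription factor genes of the set, because Zfp42 and Zfp296 share an octamer in this window and Mybl2 holds a sequence of the E2F type. The windows are the 250 bases before the start of the gene, taken from RefSeq (GRCm38.p6), which held promoters for 25 of the 34 member genes in 32 windows. Capitals mark the motif. The Zfp42 window is chr8:43307010-43307259 (minus strand), that of Zfp296 chr7:19577037-19577286 (plus strand) and that of Mybl2 chr2:163054385-163054634 (plus strand).
Zfp42: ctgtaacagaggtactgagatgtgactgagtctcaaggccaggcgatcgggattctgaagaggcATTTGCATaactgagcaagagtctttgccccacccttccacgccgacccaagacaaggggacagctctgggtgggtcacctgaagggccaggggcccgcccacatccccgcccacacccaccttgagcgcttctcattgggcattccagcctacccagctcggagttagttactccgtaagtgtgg
Zfp296: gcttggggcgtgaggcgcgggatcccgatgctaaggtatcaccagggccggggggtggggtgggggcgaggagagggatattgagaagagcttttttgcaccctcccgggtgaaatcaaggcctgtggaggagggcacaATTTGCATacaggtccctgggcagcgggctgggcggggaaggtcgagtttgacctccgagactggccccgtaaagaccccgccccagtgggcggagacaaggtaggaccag
Mybl2: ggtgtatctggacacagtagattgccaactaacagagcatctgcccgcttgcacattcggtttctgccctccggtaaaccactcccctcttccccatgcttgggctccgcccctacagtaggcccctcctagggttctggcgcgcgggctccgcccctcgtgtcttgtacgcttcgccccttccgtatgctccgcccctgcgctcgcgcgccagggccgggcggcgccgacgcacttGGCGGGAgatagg
The octamer ATGCAAAT, searched on both strands, was found in the windows of 2 member genes, Zfp42 and Zfp296, in both on the opposite strand, which is 6.25% of the 32 member windows beside 1.6% of all 32851 windows of this length. GGCGGGA, a sequence bound by E2F factors, was found for Aebp2, Mybl2, Rarg, Senp3 and Ubqln4 in 15.6% of member windows and in 9.75% of all windows. CCGGAAG, bound by ETS factors, was found for Bmp4, Gabarapl2 and Shmt2 in 9.38% of member windows and in 6.91% of all windows. These matches describe the windows alone.

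**Figure D1:**
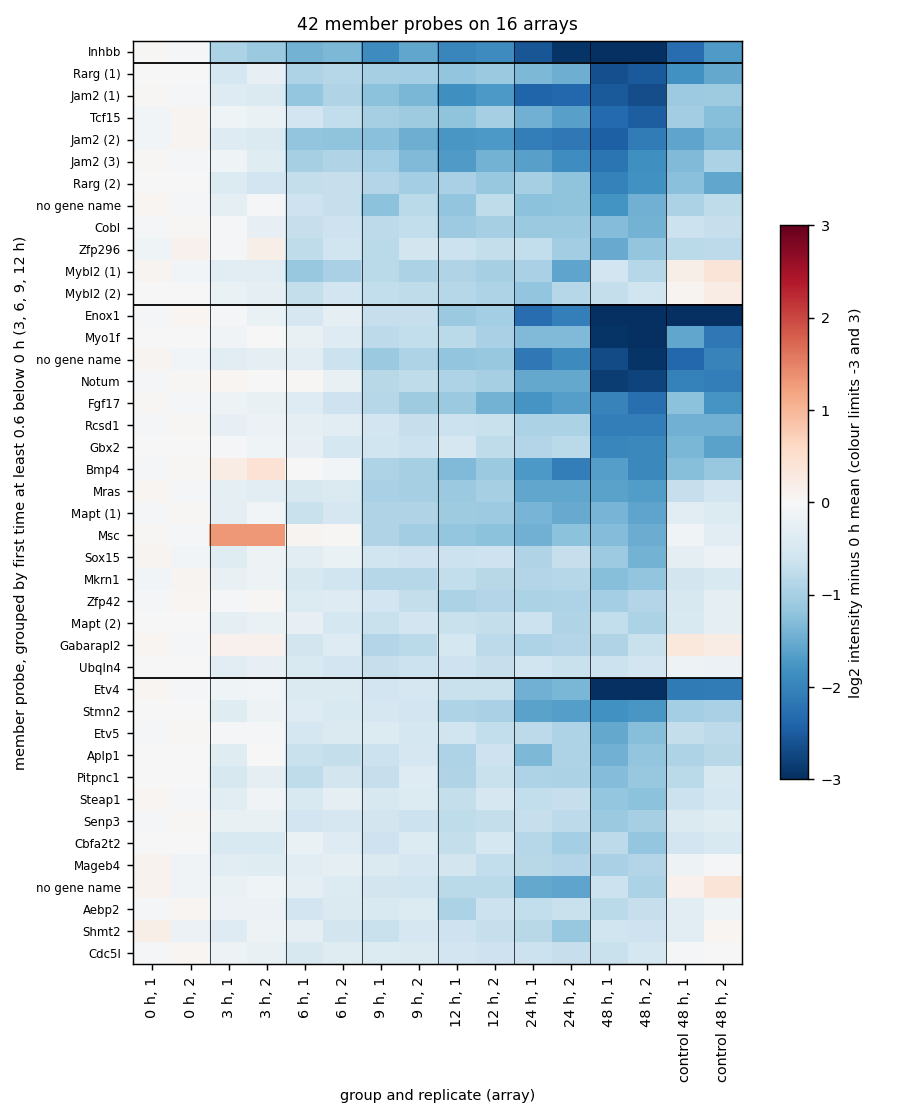
Log2 intensity of each of the 42 member probes (rows, named by gene, with a number where a gene has several) on each of the 16 arrays (columns), minus the probe's 0 h mean, with values below background drawn as measured. Rows are grouped by the first time at which the mean was at least 0.6 below 0 h and stayed there: that time was 3 h for 1 probe, 6 h for 11 probes, 9 h for 17 and 12 h for 13.

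Most members first lay 0.6 below 0 h at 6 or 9 h. At 3 h only the Inhbb probe was 0.6 or more below 0 h, against a background of 0.329% of tested probes, and the median member difference was -0.20. At 6 h, 14 members had passed 0.6 (background 1.12%), with a median of -0.48. At 9 h, 29 had (background 1.18%), with a median of -0.72, and all 42 lay below 0 h, the nearest by 0.42. At 12 h the median was -0.88, and it was -1.12 by 24 h and -1.40 by 48 h, 2.65-fold lower at the end (backgrounds of 1.66%, 3.86% and 11.9% of tested probes at least 0.6 lower), while the median of all tested probes stayed between -0.03 and 0.00. The rule reads the 0 h arrays, so these differences are not independent of it.

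The intervals between 3, 6 and 9 h were tested, because no array of these groups enters the rule. From 3 to 9 h, 29 of the 42 members fell in the limma fit at an adjusted p under 0.05, beside 352 of all tested probes (2.52%). No member rose (background 3.4%), also at an unadjusted p under 0.05, where 1471 of the 13974 tested probes were higher. At that threshold 38 members were lower, beside 1304 of all tested probes. Every member's 9 h mean lay below its 3 h mean, with a median log2 difference of -0.56 and a range of -2.27 to -0.07, and the median of all tested probes was 0.00. For 40 members both 9 h arrays lay below both 3 h arrays, which held for 24.4% of tested probes. Leaving out replicate 2 of 3 h lowered the count of 29 to 14. Leaving out a 9 h array gave 16 (replicate 1) or 17 (replicate 2). Of all calls from 3 to 9 h, 42.6% were lower, and 24.0% with median scaling, under which 25 members still fell.

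Both 3 h intervals were tested. From 3 to 6 h, 12 members fell (background 0.988%), with a median difference of -0.33. At an unadjusted p under 0.05, 25 members were lower, beside 975 of the 13974 tested probes. The 12 probes belonged to Msc, Jam2 (3 probes), Zfp296, Mybl2, Gabarapl2, Cobl, Rarg, Tcf15, Etv5 and Mapt. From 6 to 9 h, 3 members fell (background 0.0358%): Msc, Bmp4 and Notum, with a median member difference of -0.24. Both later arrays lay below both earlier ones for 34 members from 3 to 6 h (background 21.6%) and for 32 from 6 to 9 h (background 19.7%). No member rose in either interval in limma (backgrounds 1.57% and 0.0143%), or at an unadjusted p under 0.05 (1110 and 525 of all tested probes). The count of 12 became 2 or 5 when 6 h replicate 1 or 2 was left out, and 5 or 4 when 3 h replicate 1 or 2 was. The count of 3 was 1 without 6 h replicate 1 or without either 9 h replicate, and 2 without 6 h replicate 2.

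**Figure D2:**
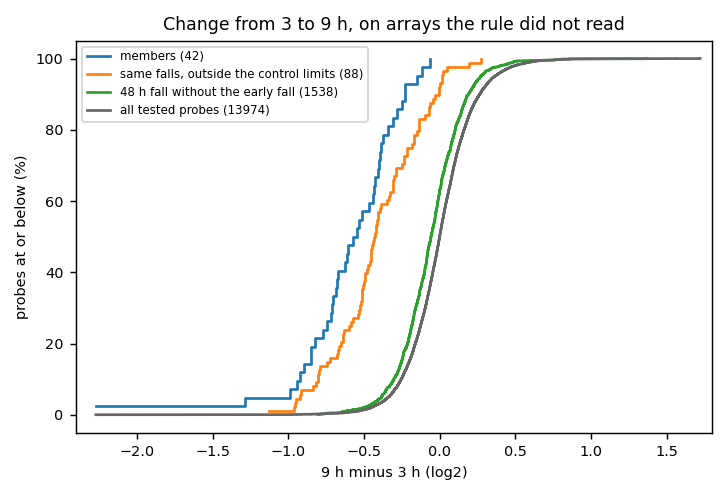
Cumulative share of probes (vertical axis, %) by their log2 difference between 9 and 3 h (horizontal axis), for the 42 members, 88 probes with the same falls outside the control limits, 1538 probes that fell by 48 h without the early fall, and all 13974 tested probes. The member curve lies to the left, with a median of -0.56 and its highest value at -0.07.

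A further 88 probes met the same falls at 12, 24 and 48 h but not the limits on the control, 80 because 48 h was not 0.4 below the control and 8 because the control lay 0.3 or more above 0 h. From 3 to 6 h, 27 of them (30.7%) fell in the limma fit, beside 28.6% of members, with a median difference of -0.37. From 3 to 9 h, 37 (42%) fell, beside 69.0% of members, with a median of -0.43. From 6 to 9 h their median difference was -0.01, and limma called 0 of the 88 lower. At an unadjusted p under 0.05, 13 were lower, beside 566 of the 13974 tested probes. Among 1538 probes that were 0.6 or more below 0 h at 48 h without the early fall, 67 (4.36%) fell from 3 to 9 h. The differences between these sets were not tested.

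Among the signalling members, Inhbb was lower earliest. Its log2 intensity was 8.20 and 8.12 at 0 h, 7.20 and 7.04 at 3 h, 6.74 and 6.82 at 6 h and 6.28 and 6.61 at 9 h. It was 6.21 and 6.28 at 12 h, 5.6 and 5.22 at 24 h, 4.78 and 4.82 at 48 h and 5.88 and 6.46 in the control, so that both arrays of each later group lay below both 0 h arrays. It was 1.6-fold lower at 9 h than at 3 h (log2 difference -0.68, SE 0.17, limma adjusted p = 0.0294). At 48 h it was not well above background on either array, and was at least 8.35-fold lower than at 0 h and at least 2.10-fold lower than in the control.

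Notum kept its level to 6 h. The values were 7.51 and 7.58 at 0 h, 7.60 and 7.55 at 3 h, 7.57 and 7.32 at 6 h and 6.71 and 6.79 at 9 h. They were 6.62 and 6.54 at 12 h, 6.00 and 6.02 at 24 h, 4.70 and 4.76 at 48 h and 5.52 and 5.47 in the control. Both 9 h arrays lay below all earlier ones, and the probe was 1.62-fold lower at 9 h than at 6 h (log2 difference -0.69, SE 0.09, limma adjusted p = 0.0108). It was not well above background at 48 h, at least 5.46-fold below 0 h. Bmp4, a ligand of the TGF-beta family known to act with LIF in mouse stem cell culture, had log2 intensities of 7.88 and 7.95 at 0 h, 8.14 and 8.35 at 3 h, 7.93 and 7.83 at 6 h and 6.98 and 6.93 at 9 h. Both 3 h arrays were above both 0 h arrays, and the decrease came late, 1.9-fold from 6 to 9 h (log2 difference -0.92, SE 0.13, limma adjusted p = 0.016). At 12, 24 and 48 h its means were 6.70, 6.01 and 6.13, beside 6.70 in the control. Fgf17 was 1.71-fold lower at 9 h than at 3 h (limma adjusted p = 0.0118) and was detected on 1 of 2 arrays at 48 h.

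**Figure D3:**
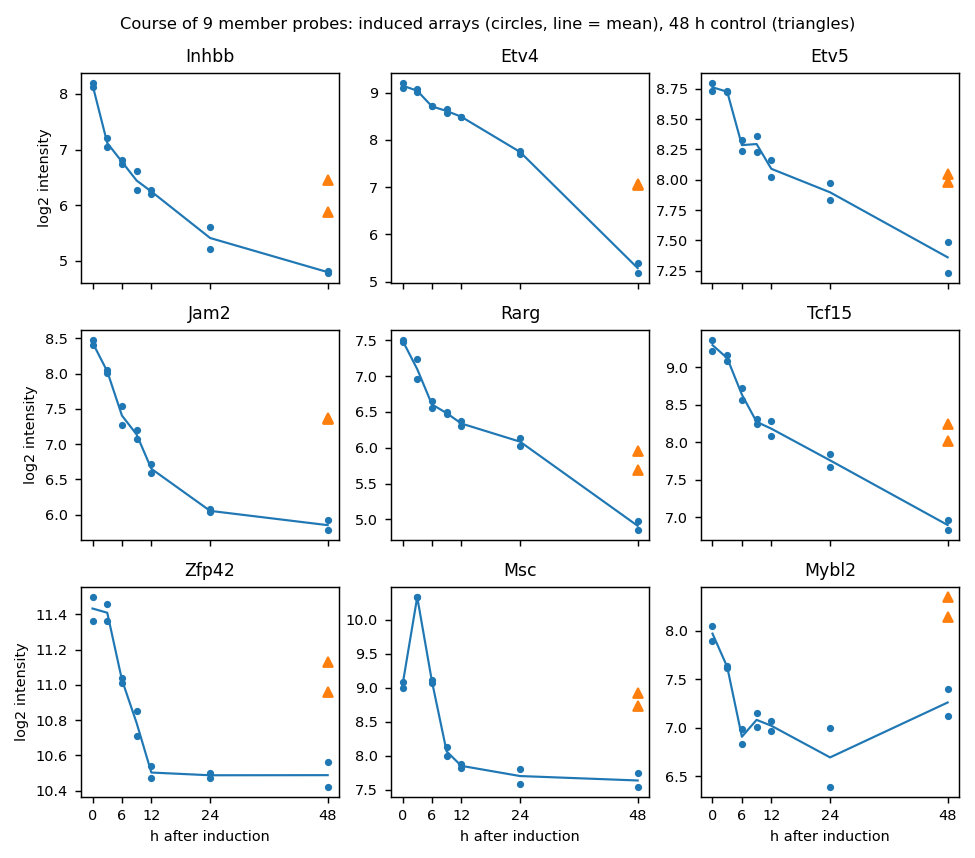
Log2 intensity (vertical axes, each on its own range) against hours after induction for 9 member probes; circles are induced arrays, lines their means, and triangles the 48 h control, with values below background drawn as measured. Inhbb was lower from 3 h, Msc peaked at 3 h, Zfp42 was level from 12 h, and Mybl2 had its lowest mean at 24 h.

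The ETS factors Etv4 and Etv5 had different late values. Etv4 had values of 9.21 and 9.09 at 0 h, 9.02 and 9.07 at 3 h, 8.71 on both arrays at 6 h and 8.58 and 8.65 at 9 h. It had 8.49 on both arrays at 12 h, 7.71 and 7.77 at 24 h, 5.18 and 5.39 at 48 h and 7.04 and 7.06 in the control. It was 1.35-fold lower at 9 h than at 3 h (log2 difference -0.43, SE 0.09, limma adjusted p = 0.0129), and 14.6-fold below 0 h and 3.4-fold below the control at 48 h. Most of that decrease lay after 24 h, with a 24 to 48 h difference of -2.46, the lowest among members detected at 48 h. Etv5 was 1.36-fold lower at 6 h than at 3 h (log2 difference -0.44, SE 0.10, limma adjusted p = 0.0359) and had means of 8.76, 8.09 and 7.36 at 0, 12 and 48 h, with 8.02 in the control.

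An immediate early list, which holds Etv4, Etv5, Dusp, Spry, Egr, Fos, Jun and Id genes, had 21 tested probes outside the set. From 3 to 9 h, 4 of them fell (Spry4, Egr2, Id1 and Id2, background 2.52%) and 2 rose (Id4 and Fos, background 3.4%), with a median of -0.15. Of those lower, 1 was left with median scaling, 2 and 1 without 3 h replicate 1 and 2, and 0 and 1 without 9 h replicate 1 and 2. Spry4, a feedback inhibitor of the FGF pathway, had a difference of -0.79 from 3 to 9 h (SE 0.14, limma adjusted p = 0.00499). It read 7.28 and 7.21 at 0 h and 6.28 and 6.66 at 9 h. Id1 read 7.36 on both 0 h arrays, 8.31 and 8.41 at 3 h and 7.94 and 7.88 at 9 h, still above its start. Id2 read 6.10 and 6.25 at 0 h, 6.68 and 6.54 at 3 h and 6.15 and 6.11 at 9 h. The 9 h values of Egr2, 5.23 and 5.10, lay near the lowest detected level of those arrays, 5.09 and 5.11. At 48 h against the control, 10 of the 21 were higher (background 8.85%), among them Fos at 1.66, Jun at 1.66 and Egr1 at 1.35 on the log2 scale. Limma called 0 lower, with 0 at an unadjusted p under 0.05. Against 0 h, Fos and Jun differed by 2.40 and 1.63 at 48 h, and by 0.75 and -0.03 in the control. Egr1 differed from 0 h by -2.15 at 48 h and by -3.50 in the control, so it was higher only against the control. The Dusp6 probes were 1.24 to 1.55 below 0 h at 48 h and 1.26 to 1.92 below it in the control.

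Members tied to the stem cell state were lower by different amounts. Zfp42 had log2 intensities of 11.36 and 11.50 at 0 h, 11.36 and 11.46 at 3 h, 11.01 and 11.04 at 6 h and 10.85 and 10.71 at 9 h. They were 10.47 and 10.54 at 12 h, 10.47 and 10.50 at 24 h, 10.42 and 10.56 at 48 h and 10.96 and 11.13 in the control. It was 1.54-fold lower at 9 h than at 3 h (log2 difference -0.63, SE 0.10, limma adjusted p = 0.00189) and was level from 12 h, 1.93-fold below 0 h at 48 h. Zfp296, a zinc finger gene expressed in embryonic stem cells whose window above also holds the octamer, fell within the 3 to 6 h interval, 1.67-fold (log2 difference -0.74, SE 0.14, limma adjusted p = 0.0121). Its 9 and 12 h means were 7.93 and 7.93, and its 48 h mean was 7.27, with 7.83 in the control.

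Jam2, the junctional adhesion molecule, was the gene with the most member probes, 3. The probe with the lowest 48 h value against 0 h read 8.48 and 8.40 at 0 h, 8.05 and 8.01 at 3 h, 7.27 and 7.54 at 6 h and 7.20 and 7.07 at 9 h. It read 6.59 and 6.71 at 12 h, 6.03 and 6.08 at 24 h, 5.92 and 5.78 at 48 h and 7.36 and 7.37 in the control. It was 1.86-fold lower at 9 h than at 3 h (log2 difference -0.90, SE 0.10, limma adjusted p = 0.000253). The other 2 probes were 1.92-fold and 1.89-fold lower over that interval (limma adjusted p = 0.000538 and 0.00417), and neither was detected at 24 or 48 h. Another Jam2 probe decreased too, with a 9 h minus 3 h difference of -0.79 (limma adjusted p = 0.000487) but was no member, since it was 0.57 below 0 h at 48 h and 1.25 above it in the control. The 4 Jam2 probes thus all had means below 0 h through the induced course, and differed in direction in the control. They also differed after 24 h. The non-member probe was higher at 48 h, with 8.32 and 8.34, than at 24 h, with 7.67 and 7.68, and the member probe detected at 48 h was not.

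Tcf15, a basic helix-loop-helix factor of early mesoderm that is also expressed in embryonic stem cells, was 1.8-fold lower at 9 h than at 3 h (log2 difference -0.85, SE 0.11, limma adjusted p = 0.000751). Its means were 9.30, 8.18 and 6.90 at 0, 12 and 48 h and 8.13 in the control. Gbx2, a homeobox gene that acts downstream of LIF and Stat3, was 1.45-fold lower over the same interval (limma adjusted p = 0.0159), and its mean went from 10.58 at 24 h to 9.47 at 48 h. Sox15 had a log2 difference from 0 h of -1.26 at 48 h and of -0.24 in the control, and its 3 to 9 h difference of -0.34 did not pass the test (limma adjusted p = 0.124).

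The receptor gene Rarg, which binds retinoic acid, had 2 member probes. For the first, the values were 7.48 and 7.51 at 0 h, 6.96 and 7.24 at 3 h, 6.56 and 6.65 at 6 h and 6.5 and 6.47 at 9 h. They were 6.30 and 6.38 at 12 h, 6.14 and 6.03 at 24 h, 4.85 and 4.97 at 48 h and 5.69 and 5.96 in the control, with both 6 h arrays below both 3 h arrays. It was 1.41-fold lower at 6 h than at 3 h (log2 difference -0.49, SE 0.11, limma adjusted p = 0.0322) and at least 5.28-fold below 0 h at 48 h, where it was not well above background. The second was 1.38-fold lower at 9 h than at 3 h (limma adjusted p = 0.0333) and 3.79-fold below 0 h at 48 h.

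A list of 33 pluripotency genes, which includes Zfp42 and Jam2, had 46 further tested probes. From 3 to 9 h, 10 of them fell (background 2.52%) and 1 rose (Lefty1, background 3.4%), with a median of -0.31. The 10 were probes of Esrrb, Klf4, Nr5a2, Pou5f1, Tdgf1 and Jam2, and 2 probes each of Tbx3 and Tcl1. The count of 10 was 5 with median scaling and 17 with the replicate number as a block. It was 5 and 4 without 3 h replicate 1 and 2, and 2 and 4 without 9 h replicate 1 and 2. Other tested probes of Pou5f1, Klf4, Nr5a2, Tbx3 and Tdgf1 were not called. Their 3 to 9 h differences ran from -0.65 (Tdgf1) to 0.09 (Nr5a2), with -0.15 for Pou5f1 (limma adjusted p = 0.38). At 48 h, 27 of the 46 were lower than in the control (background 9.05%) and 3 were higher (background 8.85%), with a median of -0.48. Esrrb, an orphan nuclear receptor of the network, differed by -0.72 from the control at 48 h (SE 0.09, limma adjusted p = 9.42e-05), yet was 0.15 above 0 h, and in the control 0.87 above 0 h. In the control, 25 of the 46 probes were above 0 h and 21 below, from -1.93 to 1.72, with a median of 0.07.

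Msc (musculin), a basic helix-loop-helix repressor, had a course of its own. The values were 9.08 and 9.00 at 0 h, 10.34 and 10.33 at 3 h, 9.12 and 9.07 at 6 h and 8.13 and 8.0 at 9 h. They were 7.88 and 7.82 at 12 h, 7.59 and 7.81 at 24 h, 7.74 and 7.54 at 48 h and 8.93 and 8.73 in the control. Both 3 h arrays were above both 0 h arrays by 1.29 on the log2 scale in the mean, and the 6 h arrays were back near 0 h. It then fell below its start, 2.36-fold from 3 to 6 h (log2 difference -1.24, SE 0.11, limma adjusted p = 4.43e-05) and 2.04-fold from 6 to 9 h (log2 difference -1.03, SE 0.11, limma adjusted p = 0.000692). At 48 h it was 2.65-fold below 0 h and 2.29-fold below the control, whose mean was -0.21 from 0 h.

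Mybl2 (B-Myb), a cell-cycle transcription factor known as an E2F target, was higher again at 48 h than at 24 h. For the probe with the larger early change, the values were 8.05 and 7.89 at 0 h, 7.64 and 7.62 at 3 h, 6.83 and 6.99 at 6 h and 7.15 and 7.01 at 9 h. They were 7.07 and 6.97 at 12 h, 7.0 and 6.39 at 24 h, 7.40 and 7.12 at 48 h and 8.14 and 8.35 in the control. Both 6 h arrays lay below both 3 h arrays, a 1.65-fold decrease (log2 difference -0.72, SE 0.16, limma adjusted p = 0.0315). Its mean was 0.57 higher at 48 h than at 24 h, and the control lay 0.28 above 0 h. The other member probe had a 24 to 48 h difference of 0.36, and a non-member Mybl2 probe fell by 0.63 from 3 to 9 h (limma adjusted p = 0.00225) and lay 0.30 below 0 h at 48 h. Among 52 probes of an E2F and cell-cycle list, which had no member, 3 rose from 3 to 9 h (Ccnd1 and Ccnd2, background 3.4%). Limma called 0 lower (background 2.52%), with 4 at an unadjusted p under 0.05 (1304 of the 13974 tested probes). Against the control at 48 h, 5 were lower (background 9.05%) and 8 higher (background 8.85%).

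The 2 remaining lists had no member. Of 15 germ-layer and primed-state probes, 1 rose from 3 to 9 h (Pou3f1, background 3.4%). Limma called 0 lower (background 2.52%), with 3 at an unadjusted p under 0.05 (1304 of the 13974 tested probes). At 48 h against the control, 2 were lower (background 9.05%) and 6 higher (background 8.85%). Of 23 extracellular matrix and adhesion probes, 1 fell (Acta2) from 3 to 9 h (background 2.52%). Limma called 0 higher (background 3.4%), with 2 at an unadjusted p under 0.05 (1471 of the 13974 tested probes). At 48 h, 9 were higher than the control (background 8.85%).

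Cytoskeletal and other members gave further early decreases. Mapt, the microtubule protein tau, was 1.34-fold lower at 6 h than at 3 h (log2 difference -0.42, SE 0.10, limma adjusted p = 0.0392) for the probe with the larger change, and its second member probe had a difference of -0.39 from 3 to 9 h (limma adjusted p = 0.0729). Cobl was 1.42-fold lower at 6 h than at 3 h (log2 difference -0.50, SE 0.09, limma adjusted p = 0.0107). Gabarapl2 read 6.01 and 5.87 at 0 h, 6.06 and 6.08 at 3 h, 5.39 and 5.56 at 6 h and 5.05 and 5.12 at 9 h. It fell from 3 to 9 h (log2 difference -0.99, SE 0.11, limma adjusted p = 0.000253), but at 9 h it was detected on 1 of 2 arrays and its mean lay under the lowest detected level, so the size is uncertain, and it ran from -1.47 to -0.30 over the alternatives. Another Gabarapl2 probe, outside the set, differed by -0.06 (limma adjusted p = 0.917). The control mean of the member probe was 0.27 above 0 h. Mras was 1.61-fold lower at 9 h than at 3 h (limma adjusted p = 0.000538), and Mkrn1 1.6-fold (limma adjusted p = 0.000821).

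Enox1 had the largest measured 48 h difference from 0 h among members detected at 48 h. It read 9.80 and 9.94 at 0 h, 9.82 and 9.66 at 3 h, 9.36 and 9.57 at 6 h and 9.17 on both arrays at 9 h. It read 8.76 and 8.84 at 12 h, 7.58 and 7.83 at 24 h, 5.95 and 5.67 at 48 h and 6.19 and 6.30 in the control. Its 48 h mean was 16.7-fold below 0 h, but the control was 12.3-fold below 0 h as well, and 48 h was 1.36-fold below the control. Myo1f, an unconventional myosin, was 1.64-fold lower at 9 h than at 3 h (log2 difference -0.71, SE 0.14, limma adjusted p = 0.00898), and 7.83-fold below 0 h and 2.17-fold below the control at 48 h. Of the 3 probes without a gene name, ILMN_2739355 was 1.63-fold lower at 9 h than at 3 h (limma adjusted p = 0.0087) and not well above background at 48 h. ILMN_1255416 had its lowest mean at 24 h, 6.51, and was 0.77 higher at 48 h.

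A total of 12 members passed none of the 3 tests among 3, 6 and 9 h. They were probes of Stmn2, Aplp1, Sox15, Pitpnc1, Steap1, Cbfa2t2, Mageb4, Mapt, Aebp2, Shmt2 and Cdc5l and the unnamed ILMN_1255416. Their 3 to 9 h differences ran from -0.41 to -0.07.

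The speed of the fall was described by the time at which a straight line between group means crossed 50% of the 48 h fall. The median of this time over members was 8.13 h, with 8.87 h from replicate 1 arrays alone and 8.27 h from replicate 2 arrays alone, and a median gap of 1.85 h between the replicates of a member. For some members the gap was far larger. Replicates 1 and 2 gave 26.2 and 5.74 h for Zfp296, 24.3 and 7.93 h for a Rarg probe and 7.87 and 25.7 h for Sox15. From the group means, the time was 6 h or less for 12 members, above 12 h for 10 and above 24 h for 4, namely Etv4, Gbx2, Myo1f and Rcsd1. These counts are approximate, given such gaps. The shortest time was 3.05 h for a Mybl2 probe, whose 48 h level had partly returned, and the longest 29.1 h for Etv4. By 3, 6, 9, 12 and 24 h the median member had covered 14.8%, 39.8%, 52.2%, 63.9% and 84.0% of its 48 h fall as measured. With the 48 h values below background set at their bound, the median time was 7.80 h and the share at 24 h 87.9%.

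The course after 24 h divided the members. From 24 to 48 h, 7 members detected at 48 h had a log2 difference of -0.6 or lower, namely Enox1, Etv4, Myo1f, a Rarg probe, Tcf15, Rcsd1 and Gbx2. Of those not well above background at 48 h, Rarg and Notum were lower by at least 0.99 and 0.91, ILMN_2739355 by at least 0.58 and Inhbb by at least 0.31. The 2 Jam2 probes detected at neither time have no order between them. The 2 Mybl2 probes, Shmt2 and ILMN_1255416 were higher at 48 h than at 24 h by 0.36 to 0.77. With values below background at their bound and those 2 Jam2 probes left out, the lowest mean of the course was at 48 h for 30 members, at 24 h for 7, at 12 h for 1 and at 9 h for 2. These classes were set after the values were seen and rest on arrays the rule reads.

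Loss of detection was late and limited. All 42 members were detected on both arrays at 0, 3 and 6 h and on both control arrays. At 9 h Gabarapl2 and at 12 h a Jam2 probe was detected on 1 of 2 arrays, and the other 41 on both. At 24 h, 3 were detected on neither array, Gabarapl2 and 2 Jam2 probes (background 1.67% of the probes detected on both 0 h arrays). At 48 h, 6 were detected on neither array (background 2.67%), namely Inhbb, Notum, 1 Rarg probe, 2 Jam2 probes and ILMN_2739355, and 3 on 1 array. Their decreases from 0 h to 48 h were at least 3.13-fold to at least 8.35-fold, and against the control at least 1.31-fold to at least 2.10-fold. In the control 0 of 42 members were undetected on both arrays, beside 2.48% of probes, and a count of 0 among 42 is close to that share. The rule reads the 0 h, 24 h, 48 h and control arrays and sets the control above 48 h. The counts of loss at 24 h, at 48 h and in the control are thus not independent of it.

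**Figure D4:**
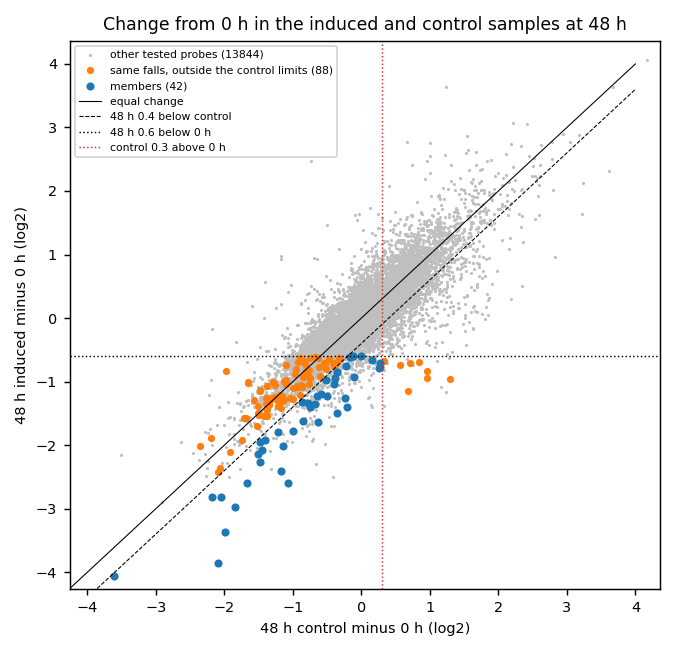
Log2 change from 0 h in the 48 h control (horizontal axis) and in the induced samples at 48 h (vertical axis) for 13974 tested probes, with the limits of the rule as lines; blue points are the 42 members and orange points the 88 probes with the same falls outside the control limits. The members extend from -4.06 to -0.60 on the vertical axis and from -3.62 to 0.28 on the horizontal one.

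Most members were lower in the control as well. The control mean was at least 0.6 below 0 h for 24 members (background 12.3%), 0.3 to 0.6 below for 7 and within 0.3 for 11, of which 4 were above 0 h. The median control difference was -0.71, and the control covered a median of 51.1% of the 48 h fall as measured, from -39.2% for Mybl2 to 89.2% for Enox1. Since 48 h and the control are both set against the same 0 h arrays, their values are given side by side. For the 36 members detected on at least 1 array at 48 h, the 48 h mean minus the control mean ran from -1.77 to -0.44, with a median of -0.65. For the 6 others only the bounds above hold, the smallest of them at -0.39 for Notum, and the median over all 42 at these bounds was -0.64. For all 42 members both 48 h arrays lay below both control arrays, as the rule favours. For 17 members the control lay below the 12 h mean, and for 9 below the 24 h mean. Members with the control near 0 h were Msc, Sox15, Mageb4, Aebp2, Ubqln4, Shmt2, Cdc5l, Gabarapl2, Mybl2 (2 probes) and ILMN_1255416.

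Some members lay close to the limits of the rule. Just inside lay Cdc5l (48 h minus 0 h -0.60), Steap1 (12 h minus 0 h -0.60) and Shmt2 (48 h minus 0 h -0.60), and just outside an unnamed probe, Znrd1 and Notch4, at -0.60, -0.59 and -0.59 for 12 h minus 0 h. Within 0.05 of a limit lay 12 members and 19 other probes. With the rule applied without 1 of the 2 arrays of 12 h, 24 h or 48 h, 40 to 48 probes were chosen, 37 to 42 of them shared with the 42. The left-out 12 h arrays, set against the same 0 h mean, were 0.6 or more below it for 35 of 44 and 35 of 48 such probes, the 24 h arrays for 42 of 42 and 42 of 43, and the 48 h arrays for 37 of 40 and 38 of 43. By group means the backgrounds were 1.66%, 3.86% and 11.9% of tested probes. That 0 h mean also chose the probes, so these counts are not independent of the rule. Without 0 h replicate 1 or 2 the rule chose 48 or 55 probes, with 35 and 40 of the 42. Without control replicate 1 or 2 it chose 45 or 37, with 37 of the 42 each time.

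Other probes of the member genes were compared with the members. The 4 member genes Jam2, Rarg, Mapt and Mybl2 had more than 1 member probe. The 34 genes had 20 further probes, of which 11 were tested, and all 11 were lower at 48 h than at 0 h and than in the control. They all missed the rule, and some were lower by little. Their 48 h minus 0 h differences ran from -1.24 (Aebp2) to -0.03 (Cdc5l), with -0.15 for another Cdc5l probe and -0.09 for Shmt2. The median of all tested probes was -0.03 for 48 h minus 0 h and 0.01 for 48 h minus the control, and the share of them below was not counted. These probes share genes with members chosen on the same arrays, so the count of 11 is not independent of the rule. From 3 to 9 h, 4 of these 11 fell (probes of Jam2, Mybl2, Shmt2 and Zfp296, background 2.52%). A Rarg probe outside the set differed by 0.27 from 3 to 9 h (limma adjusted p = 0.19), against the direction of the 2 member probes. Its 0 h mean of 4.95 lay under the lowest detected level of the 0 h arrays, 5.13 and 5.14, so its direction is uncertain.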

How the data were processed

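Probe intensities and detection p-values were deposited by the authors in a table called non-normalized. The intensity columns were linear, without negative values, and the detection p-value ran from 0 to 1. The series matrix, also deposited by the authors, holds log2 values with the same distribution on every array and was used as an alternative. Per the submitters' processing notes, BeadStudio 3.2, lumi and RMA were used, with no role given for each.

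The neqc function of limma 3.58.1 (R 4.3.3) corrected background from the detection values, added an offset of 16, quantile-normalized and took log2. Folds of dim probes are shrunk by that offset. The filter kept 13974 of 25697 probes, those detected (p under 0.05) on 2 or more arrays. All 16 arrays entered 1 limma fit of group means (8 residual degrees of freedom), with Benjamini-Hochberg adjustment over all tested probes within each comparison and calls at an adjusted p under 0.05. Precision is limited by 2 arrays per group: the median standard error of a difference was 0.12. A probe detected on neither array of a group was not well above background there, and its fold is a bound against the higher of its own value and the lowest detected value of each array, after background correction. Probe genes came from GEO's platform annotation (23978 of 25697 probes with 1 symbol, 1719 with none, 0 with several), checked by gene number against RefSeq, where 23962 were found. No scan or slide is named in the table, so no batch was tested.

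Members and gene lists were chosen with earlier results of these data known. Genes named by rule were those of the 10 members with the lowest 48 h minus 0 h difference, the 10 with the lowest 48 h minus control difference, the 10 with the lowest 6 h minus 3 h difference among those called, and members in a list. This gave 21 probes of 17 genes; others were named after their values were seen. The lists covered naive pluripotency, primed and germ-layer genes, E2F and cell-cycle genes, extracellular matrix, and immediate early genes. The fit and the rule were tested on simulated data. Alternatives changed scaling, background correction, offset, filter, moderation, threshold, arrays in the fit and the replicate block.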

Additional observations from a re-analysis of the deposited data

How the results depend on the processing

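The rule chose 14 probes without background correction, 25 with an offset of 50, 105 from the series matrix values (41 of the 42 among them), 71 with falls of at least 0.5 and 20 with falls of at least 0.8. Median scaling gave 57 probes and cyclic loess 39, with 39 and 38 of the 42. Leaving out 1 array gave 37 to 55 probes. Among the 42 members, the count lower at 6 h than at 3 h was 20 without background correction, 19 with an offset of 50, 5 from the series matrix, 3 at an adjusted p under 0.01 and 2 with only the 2 groups compared, and 2 to 13 on leaving out 1 array. The count lower at 9 h than at 6 h was 1 from the series matrix, 1 at an adjusted p under 0.01, 0 with only the 2 groups compared and 1 to 3 on leaving out 1 array. The count lower at 9 h than at 3 h was 19 at an adjusted p under 0.01 and 14 to 30 on leaving out 1 array; its other alternatives gave 23 to 33. A change of offset or correction also changes how far dim probes are shrunk, the 2-group fits have fewer residual degrees of freedom, and for the other settings the cause was not tested. Of 1188 alternative values for the member calls among 3, 6 and 9 h, 1030 stayed past the threshold, 158 fell short of it and 0 changed sign. With the replicate number as a block, the counts were 16, 4 and 31. Labels state no pairing, and the deviations of same-numbered arrays correlated at 0.06 to 0.11 among 3, 6 and 9 h.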
